A study of Mus musculus with 8 samples.

Results

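Astrocytes with no Gfap count were examined among cells sorted for the Drd1a-tdTomato reporter (D1Tom) from the frontal isocortex of mice at postnatal day 7. A cell was a member when it held counts of at least 3 of 6 astrocyte genes (Aqp4, Gja1, Slc7a10, Cldn10, Mfge8 and Fgfr3) and no count of Gfap, Pdgfra, Top2a, Mki67 or Fgf15. This rule selected 1993 of the 11494 D1Tom cells (17.3%), of 22876 cells in the series. In what follows 4 values stand for the libraries control 1, control 2, cKO 1 and cKO 2 in that order, and these held 596, 334, 490 and 573 members. The members were chosen by their measured counts of these 11 genes, so the levels of those genes are given only as a description.

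The D1Tom mice carried the Drd1a-tdTomato BAC transgene (line 6) and Foxp2 flox/flox alleles. Control animals had no Cre and the conditional knockouts (cKO) had Emx1-Cre as well, so the floxed alleles and the reporter were shared by both groups. Emx1-Cre acts in the dorsal telencephalic lineage, which gives rise to cortical excitatory neurons and to glia, so a change in astrocytes cannot be told apart from a response to changed neurons. Each genotype had 2 libraries, and each preparation day held 1 control and 1 cKO library, with a male animal only in cKO 2. Live reporter-positive cells were sorted after pronase digestion in the presence of channel blockers and counted with 10x 3' chemistry, to a stated target of 1000 cells per sample, beside 2395 to 3206 cells per library in the table. The GTE sort, from golli-τ-eGFP mice of the same alleles, is used below only as a second set of libraries. The labels do not say whether a library came from a single animal, so p-values refer to libraries and not to animals. The fits also borrow the spread across genes, so a p-value need not reflect a gene's own spread between libraries.

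Astrocytes take up glutamate and GABA from around synapses, buffer potassium and water, supply neurons with lipids and lactate, and secrete factors that act on synapse formation. In the first postnatal weeks they multiply and mature in the mouse cortex, and protoplasmic astrocytes of the grey matter hold little or no GFAP, an intermediate filament protein that is abundant in white matter, in astrocytes under the pial surface and in reactive astrocytes. Membership here rests on counts, and a cell with few counts can lack Gfap by sampling alone.

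Levels are in CPM, the counts of the named cells of a library summed and scaled to the same total in each. Summed member counts were 5427155, 4413622, 4417189 and 4236592, with medians per member cell of 7453, 10272, 7272 and 6405. Of 5114 D1Tom cells with 3 or more of the 6 markers, 2249 were left out for a count of Pdgfra (1562 cells), Top2a (958), Mki67 (773) or Fgf15 (25), and 872 had Gfap counts and none of the other 4 genes. These 872 Gfap-positive cells, with medians of 10712, 11521, 10200.5 and 7217 counts, form the comparison class. Members held 3 markers in 477 cells, 4 in 488, 5 in 623 and 6 in 405.

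The label of astrocyte was checked with 12 astrocyte markers that the rule did not use, among them Slc1a3, Slc1a2, Aldoc, Sox9 and Slc4a4. All 12 were higher in members than in the other D1Tom cells of each of the 4 libraries, with sums of 9327, 5255, 9081 and 6857 CPM against 2385, 3284, 2879 and 4583. The same sums held many neuronal transcripts. The 23 neuronal markers summed to 2972, 5780, 3819 and 4590 CPM in members, against 6322, 6149, 5939 and 5147 in the other cells. Control 2 was the only library in which members held more neuronal than astrocytic marker counts in sum.

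Cell by cell, 90.8, 60.8, 86.5 and 72.9% of members had more counts of the 12 astrocyte markers than of the 23 neuronal markers, 1586 cells in all (79.6%). By this measure the label held for most members and not for about 1 in 5, and 268 members lay within a factor of 1.5 of that line. A stricter measure gave fewer clean cells. At least 4 pan-neuronal markers, or at least 3 markers of another cell type, were detected in 258, 331, 302 and 523 members, 1414 in all. In control 2 that was nearly every member. Among members just inside the rule, with 3 markers, 51.6% had more astrocytic than neuronal marker counts, against 24.4% of 579 cells just outside with 2 markers. Among cells outside it for a single Gfap count the share was 70.1% (271 cells), and among cells with 2 or more Gfap counts 92.8% (601 cells). Results that bear on this are given below also for the 1586 cells, called astrocyte-dominated members, a set added after seeing the data. That set was chosen by counts of the 12 astrocyte and 23 neuronal markers. Results for those markers within it are therefore in part fixed by the choice. A barcode found in more than 1 D1Tom library (97 barcodes, 200 cells) occurred in 34 members.

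**Figure D1:**
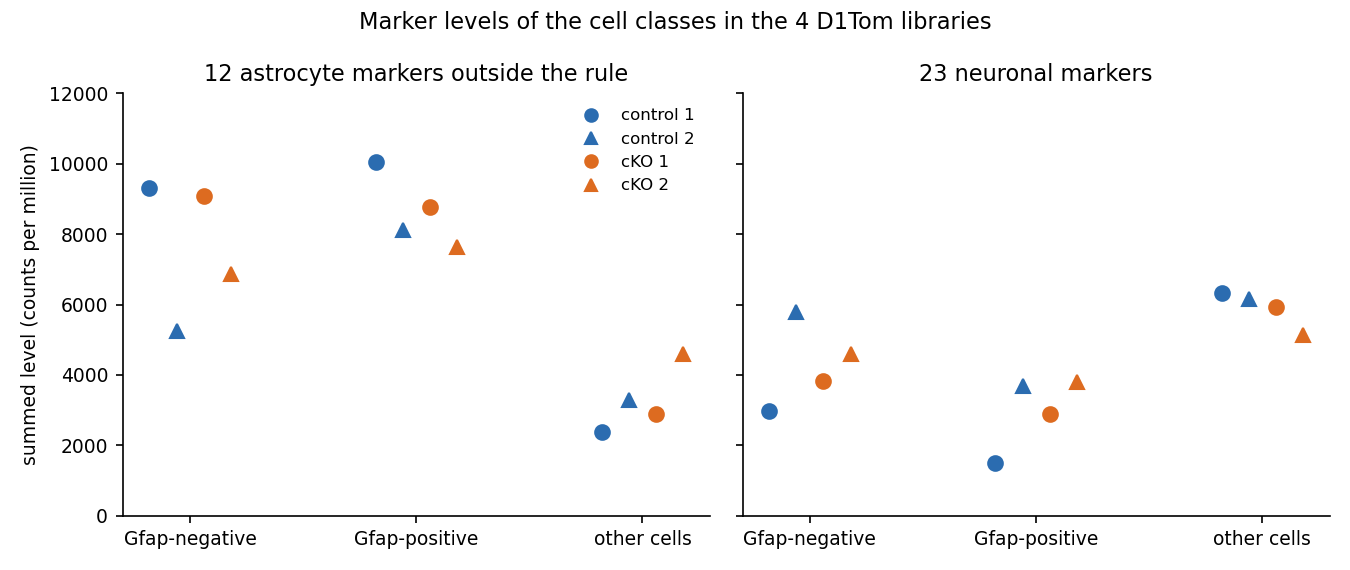
Summed level in CPM (vertical axis) of 12 astrocyte markers outside the rule (left) and 23 neuronal markers (right) in Gfap-negative members, Gfap-positive cells and all other D1Tom cells. Each point is a library, blue for control and orange for cKO, with circles for replicate 1 and triangles for replicate 2. Astrocyte markers lie between 5255 and 9327 in members and between 2385 and 4583 in other cells, and the highest neuronal level among members is that of control 2 at 5780.

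Red blood cell, endothelial, immediate early and microglial transcripts also differed between libraries. The 5 red blood cell genes summed to 3.69, 4751, 22.6 and 22.4 CPM in members, so control 2 alone was high. The 8 endothelial and mural markers summed to 209, 666, 78.3 and 404 CPM, with the day 2 libraries, control 2 and cKO 2, above both day 1 libraries. The 15 immediate early and dissociation genes summed to 3828, 401, 694 and 434 CPM, so control 1 alone was high. The microglial markers summed to 6.63, 53.9, 69.7 and 67.3 CPM, so control 1 was below the other libraries. Mag and Mog, defining markers of myelinating oligodendrocytes, were at 0 in both control libraries, and at 2.49 and 1.42 CPM for Mag in cKO 1 and cKO 2. The part of these transcripts in the results below was not tested except where a value without the library is given. Astrocyte-dominated members were not chosen by these transcripts, so that limit does not remove them. In it the endothelial and mural markers summed to 262, 1102, 98.2 and 546 CPM and the microglial markers to 6.74, 101, 58.8 and 69.0 CPM. The red blood cell genes summed to 1.68, 1874, 24.7 and 18.5 CPM there.

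Members made up 18.6% of control 1 (exact 95% binomial interval 17.3 to 20.0%), 13.9% of control 2 (12.6 to 15.4%), 17.4% of cKO 1 (16.0 to 18.9%) and 18.6% of cKO 2 (17.2 to 20.0%). Control averaged 16.3% ± 3.28 (SD, n = 2) and cKO 18.0% ± 0.829 (SD, n = 2). The difference of 1.74 percentage points was within the spread of the control libraries (exact permutation test, 2-sided, p = 0.667), and with 2 libraries a group that test cannot go below 0.333. Intervals cover counting error only.

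The genes at the highest level in members, mitochondrial and ribosomal protein genes aside, were led by Fabp7, Cst3, Ptn, Tmsb4x, Tmsb10, Ftl1, Fth1 and Apoe. Fabp7, a fatty acid binding protein of radial glia and young astrocytes, was at 12684, 4614, 8036 and 5629.8 CPM. Cst3, which encodes the secreted protease inhibitor cystatin C, was at 12029.7, 4156, 6062 and 5007 CPM. Ptn, a secreted heparin-binding growth factor, was at 10135, 4135, 6652 and 5654 CPM. Apoe, the main lipid carrier secreted by astrocytes, was at 10526, 1766, 3097 and 3229 CPM. In each of these 4 genes control 1 was the highest library and control 2 the lowest.

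Among genes with at least 50 CPM in every library, Slc7a10, a transporter of serine and other small neutral amino acids and a gene of the rule, stood furthest above the other D1Tom cells, at 3.08 to 9.25 times, as the rule fixes. Of genes outside the rule, the next by the lowest ratio over libraries included Igfbp2, Hes5, Slc7a11, St6galnac5, Lrig1, Pla2g7, Htra1, Abcb9, Ptprz1, Tlcd1 and Cst3. Igfbp2, a secreted binder of insulin-like growth factors, was 2.58 to 5.38 times its level in other cells. Hes5, a Notch effector that maintains progenitors and glia, was 2.16 to 4.72 times that level. Slc7a11, the cystine-glutamate exchanger, was 2.06 to 6.05 times that level. These ratios compare cells chosen as astrocytes with the rest and carry no test. The counts of listed genes above or below the other cells, given next, are descriptions too. The share of all genes that were so in all 4 libraries was not computed.

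Genes of glutamate and amino acid handling were above the other cells in 12 of 12 cases in all 4 libraries. Slc1a3 (GLAST), a glutamate uptake transporter, was at 3660.1, 1821, 3509 and 2376 CPM, and Slc1a2 (GLT-1), the transporter that dominates in mature cortex, at 1549, 1269.7, 1817 and 1527 CPM. Glul, glutamine synthetase, was at 2078, 605, 1055 and 963 CPM. Both libraries of day 1 lay above both of day 2 for Slc1a3 and Glul, with no such split by genotype. The potassium, water and gap junction list had 9 of 12 genes above the other cells in all 4 libraries. The exceptions were Aqp4, the water channel and a gene of the rule, Itpr2, the calcium release receptor of astrocytes, and Slc12a2, the NKCC1 cotransporter. Aqp4 was at 646, 357, 517 and 398 CPM, 0.921 to 2.52 times the level of the other cells, which include the Gfap-positive class and Pdgfra-positive cells. Kcnj10, the inward rectifier Kir4.1, was at 174, 114, 171 and 136 CPM.

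Of 16 lipid and lipoprotein genes 15 were higher than in the other cells of all 4 libraries, with Hmgcs1, an early enzyme of cholesterol synthesis, the exception at 0.952 to 1.17 times their level. Energy and lactate genes were higher in 9 of 14, among them Aldoc, an astrocytic glycolytic aldolase, at 969, 292, 488 and 504 CPM. Of the synapse-regulating factors 11 of 20 were higher, with Sparcl1 (hevin), a secreted promoter of excitatory synapses, at 1806, 774, 1018 and 914 CPM, and Chrdl1, a secreted factor of synapse maturation, at 125, 71.8, 106 and 88.3 CPM. Thbs1, the thrombospondin of young astrocytes, was near 0 at 1.11, 3.85, 2.04 and 2.36 CPM. Mertk and Megf10, receptors by which astrocytes engulf synapses, were at 40, 23.1, 41.4 and 22 CPM and 37.6, 12, 34.2 and 24.1 CPM.

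Glial transcription factors were higher in 17 of 26. Sox9, the factor that starts gliogenesis, was at 283, 181, 330.3 and 240.3 CPM and Dbx2, a homeobox factor, at 129, 46.7, 102 and 67.5 CPM, 2.67 to 7.31 times the level of the other cells. Growth factor and Notch genes were higher in 15 of 20, including Notch1, Notch2, Egfr, Fgfr1 and Fgfr2. The Notch ligand gene Dll1, a mark of committed progenitors, ran the other way, at 3.87, 2.95, 7.92 and 2.12 CPM and 0.195 to 0.667 times the level of other cells. Of the neurotransmitter receptors 6 of 14 were higher, among them Grm3, the group II metabotropic glutamate receptor, at 214, 119.9, 174 and 141 CPM, and Grm5, the receptor of young astrocytes that neurons also carry, at 335, 373, 347 and 306 CPM. Among nuclear cell cycle genes 11 of 15 were lower than in other cells, and the rule itself had left out cells with Top2a or Mki67. Ccnd2, a D-type cyclin, was at 1365, 626, 899 and 718 CPM. None of 16 reactive astrocyte genes was higher in all 4 libraries, with C3 at 0 in every library and Lcn2 at 0 in all but control 2 (0.227 CPM).

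Members also varied among themselves. In counts thinned to 3000 per cell, which left out 19, 0, 6 and 6 shallower members, the ratio of variance to mean was highest by rank for Cst3, Apoe, mt-Nd1, Fabp7, Actb and Ptn, followed by mt-Cytb, mt-Nd4, Tmsb4x, Ptprz1, Id3, Snhg11, Tmsb10, Hes5 and Ncan. The ratio for Cst3 was 16.3, 16.6, 14.1 and 15, and that for Apoe 18.8, 12.7, 10 and 17.2. Snhg11, a noncoding RNA of neurons, was on this list, found in 18.0, 35.3, 25.4 and 22.2% of thinned members. Among other thinned D1Tom cells with more neuronal than astrocytic counts it was found in 72.4, 70.7, 60.2 and 41%. The astrocytic Slc1a3 was found in 94.8, 89.5, 95.2 and 93.3% of thinned members and in 21.7, 43.2, 26.5 and 61.8% of those neuronal cells. Slc1a3 is among the astrocyte markers by which those neuronal cells were chosen, so its lower share there is in part fixed by the choice.

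The first tested comparison set members against the Gfap-positive cells of the same libraries. The split was made on Gfap counts in these same cells, so genes that rise and fall with Gfap, or with depth, differ in part by the choice, and the Gfap-positive cells were deeper in every library. Members were lower than Gfap-positive cells in the 4 Id transcription factors, the interferon-induced gene Ifitm3, the metallothionein Mt2 and the receptor genes Bmpr1a and Il6st, and they held few counts of major histocompatibility complex (MHC) class II genes. They were higher in Slc6a11, Slc7a11, Ptprz1, Dbx2 and Igfbp2, and in 7 of 7 pan-neuronal markers. Of the 12 astrocyte markers outside the rule 8 were lower in members and 1 higher, with a median log2 fold change of -0.33. Among astrocyte-dominated cells, which these markers helped to choose, 3 were lower and 1 higher. Of 12242 genes tested, 1699 passed (13.9%), with 813 higher (6.64%) and 886 lower (7.24%) in members, by edgeR's quasi-likelihood test with Benjamini-Hochberg adjustment at 0.05 and the library as a block. Without any test, 19.6% of genes were higher and 13.8% lower in members of 4 of 4 libraries. Astrocyte-dominated cells of both classes gave 1208 (10.6%), 482 higher (4.23%) and 726 lower (6.37%), DESeq2 gave 913, and leaving out control 2 gave 865. Cells thinned to 3000 counts before the rule was applied anew gave 670 of 9091 genes tested, with classes that differ from those above. Fold changes in this comparison are log2, members over Gfap-positive cells of 4 libraries, with a median of 0.03 over all genes tested. List counts below stand against the shares of all genes, 6.64% higher and 7.24% lower. A count near those shares is no result about its list.

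**Figure D2:**
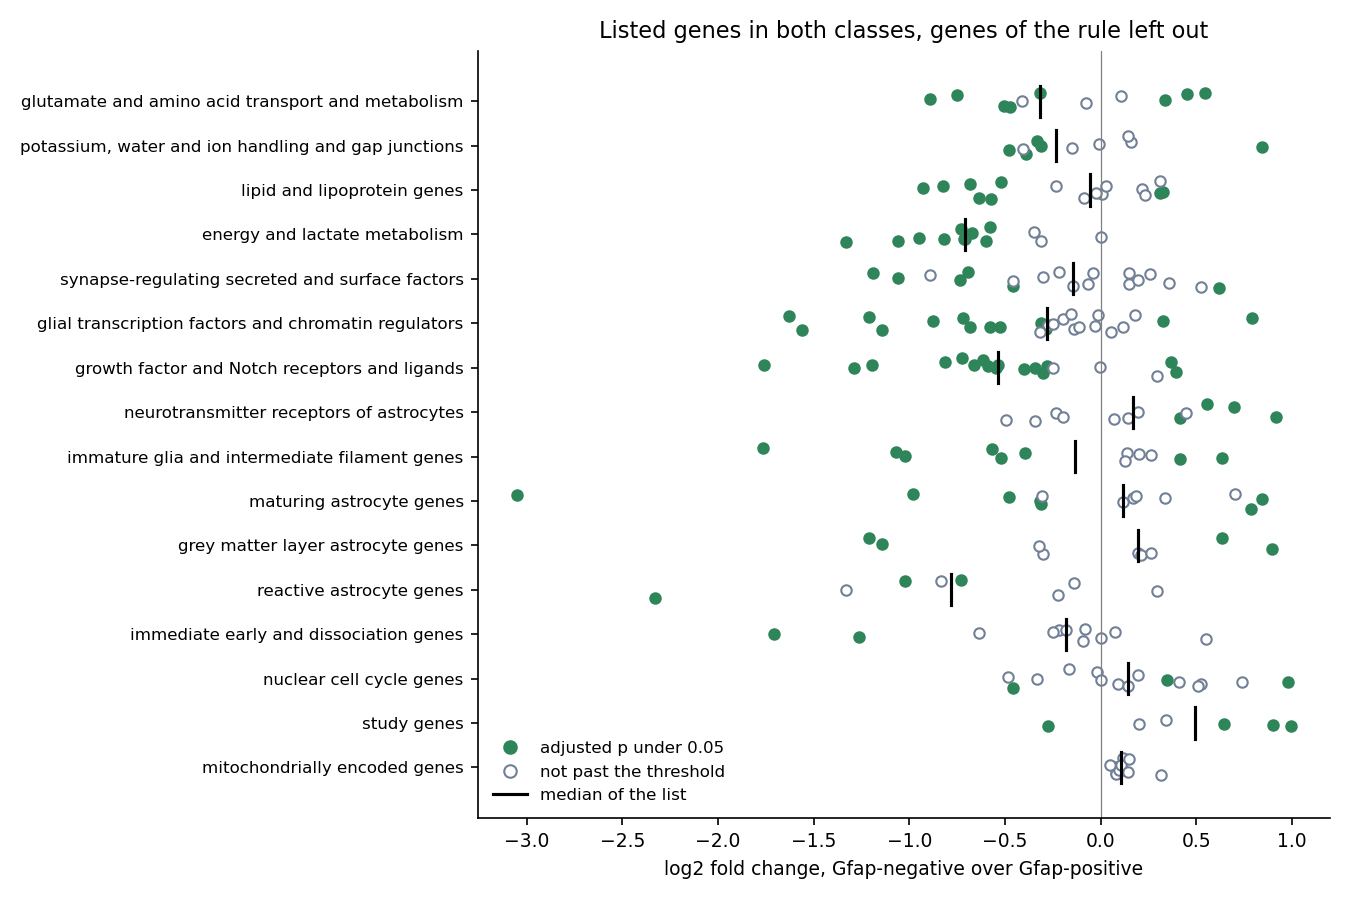
Log2 fold change of members over Gfap-positive cells (horizontal axis) for the genes of 16 lists (rows) that passed the filter on low counts in members alone. Filled points passed the adjusted p of 0.05, open points did not, and black bars are list medians. The reactive astrocyte list has a median of -0.78 over 8 genes, and the neurotransmitter receptor list one of 0.17 over 12.

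MHC class II genes encode the antigen-presenting molecule, its chaperones and, with Ciita, its transcriptional activator. Members held so few counts that only H2-DMa of the 7 passed the filter on low counts in members alone. The other 6 entered the test through the class in which they were high, so their levels are a description with no test. Cd74, the invariant chain, was at 0.737, 0.68, 0.453 and 1.65 CPM in members and 270.5, 219, 59.5 and 115 CPM in Gfap-positive cells. It was lower in members in 4 of 4 libraries. Ciita was at 0.369, 0.227, 0 and 0.236 CPM against 4.87, 6.29, 3.59 and 3.5. H2-DMa, a peptide-loading subunit, was at 11.1, 9.52, 9.28 and 8.5 CPM in members against 81.5, 43.7, 28.7 and 28 (-2.22, SE 0.20, adjusted p = 1.3e-06). Control libraries were above cKO libraries for Cd74 in the Gfap-positive class, and no such order held in members.

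Since these genes were low together in members, the promoters of 3 of them are shown, from 250 bases before to 50 after the start (RefSeq, GRCm38.p6). The capitals mark CCAAT or its reverse complement ATTGG, the core of the Y box known from MHC class II promoters. They lie at chr17:34287774-34288073 (H2-Aa, minus strand), chr17:34305617-34305916 (H2-Eb1, plus strand) and chr17:34152941-34153240 (H2-DMb1, plus strand), each printed in the direction of the gene.
H2-Aa: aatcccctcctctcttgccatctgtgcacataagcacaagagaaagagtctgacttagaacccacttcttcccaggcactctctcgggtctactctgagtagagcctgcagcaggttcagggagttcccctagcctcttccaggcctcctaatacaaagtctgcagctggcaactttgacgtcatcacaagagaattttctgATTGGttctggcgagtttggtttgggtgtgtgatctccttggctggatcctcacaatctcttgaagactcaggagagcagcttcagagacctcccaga
H2-Eb1: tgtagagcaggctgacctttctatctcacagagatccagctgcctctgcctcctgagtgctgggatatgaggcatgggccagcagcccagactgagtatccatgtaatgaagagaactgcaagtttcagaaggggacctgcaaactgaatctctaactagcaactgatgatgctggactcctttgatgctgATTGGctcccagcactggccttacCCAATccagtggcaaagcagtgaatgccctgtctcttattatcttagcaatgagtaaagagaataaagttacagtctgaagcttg
H2-DMb1: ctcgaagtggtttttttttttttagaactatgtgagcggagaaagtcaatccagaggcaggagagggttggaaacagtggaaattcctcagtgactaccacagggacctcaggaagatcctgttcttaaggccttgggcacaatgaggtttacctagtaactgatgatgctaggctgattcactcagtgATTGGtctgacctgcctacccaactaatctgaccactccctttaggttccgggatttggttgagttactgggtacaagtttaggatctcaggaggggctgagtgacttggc
H2-Aa was at 0.921, 0.68, 0 and 0.236 CPM in members and 78.8, 61.9, 15.9 and 24.5 CPM in Gfap-positive cells. H2-Eb1 was at 2.58, 1.81, 1.81 and 1.65 CPM and 86.8, 67.1, 33.3 and 37 CPM, and H2-DMb1 at 0.369, 0.68, 0.679 and 0 CPM and 66.4, 30.8, 12.8 and 14.8 CPM. Searched on both strands, CCAAT was present in these 3 promoters and in 1 of 2 promoters listed for H2-DMa, the 4 genes of the list that matched the table. It was also present in 12289 of all 32851 promoters of the same 300 bases (37.4%), so its presence is a description only.

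Among lower genes that passed the filter in members alone, those with large changes included Rspo1, Msx2, Serpinf1 and Shisa8. Rspo1, a secreted enhancer of Wnt signalling, was at 4.05, 2.27, 4.07 and 1.65 CPM in members against 115, 68.8, 99.5 and 46.3 (-4.81, SE 0.16, adjusted p = 4.5e-12). Msx2, a homeobox gene induced by BMP, was at 2.95, 2.27, 2.04 and 1.18 CPM against 57.5, 51.7, 48.2 and 30.7 (-4.50, SE 0.20, adjusted p = 1.1e-10). Serpinf1, the secreted factor PEDF, was at 25.2, 6.57, 8.15 and 14.9 CPM against 675, 224, 86.7 and 131 (-4.23, SE 0.23, adjusted p = 2.2e-09). Each of the 3 was lower in members in 4 of 4 libraries and passed in all 12 alternatives that gave a value. Of the 8 reactive astrocyte genes that passed the filter in members alone 3 were lower and none higher, with a median of -0.78. Ifitm3, an interferon-induced membrane protein, was at 28.6, 26.7, 7.92 and 29 CPM against 185, 131, 78.5 and 63 (-2.33, SE 0.22, adjusted p = 2.1e-06). The others were Stat3 (-0.73), a cytokine-activated transcription factor, and Vim (-1.02), an intermediate filament gene. C4b, a complement component that entered through Gfap-positive cells, was at 1.29, 0.453, 4.07 and 1.18 CPM against 15.5, 22, 24.6 and 21.8.

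Of 26 glial transcription factors 12 were lower and 2 higher, with a median of -0.28, against 7.24% and 6.64% of all genes. Astrocyte-dominated cells gave 7 and 3, against 6.37% and 4.23% of all genes. The 4 Id genes, BMP-induced inhibitors of basic helix-loop-helix factors, were all lower. Id4 was at 406, 111, 359 and 184 CPM against 1088, 643, 831 and 447 (-1.63, SE 0.16, adjusted p = 2.1e-06), and Id1 at 727, 147, 233 and 154 against 1022, 571, 479.6 and 373 (-1.21, SE 0.15, adjusted p = 3.8e-05). Hopx, an atypical homeobox factor of glial progenitors, was also lower (-1.56, SE 0.25, adjusted p = 0.00045). Dbx2 ran the other way, at 129, 46.7, 102 and 67.5 CPM against 67.7, 28.3, 48.7 and 45.5 (0.79, SE 0.11, adjusted p = 0.00013), and Hes1, a Notch effector, was slightly higher (0.32, SE 0.10, adjusted p = 0.035). Of 19 growth factor and Notch genes 14 were lower and 2 higher, against 6 and 3 in astrocyte-dominated cells. Il6st, the shared signal receptor of the IL-6 family, was at 28.6, 31.7, 38.7 and 26.7 CPM against 91.6, 111, 138 and 79 (-1.76, SE 0.11, adjusted p = 9.1e-09), and its partner Lifr was lower too (-1.19, SE 0.12, adjusted p = 4.8e-06). Bmpr1a, a type I BMP receptor, was at 127, 101, 125 and 91.3 CPM against 290.4, 261, 315 and 199.6 (-1.29, SE 0.09, adjusted p = 3.6e-08). The 2 higher receptors were Egfr (0.37, SE 0.11, adjusted p = 0.032) and the Hedgehog receptor Ptch1 (0.39, SE 0.10, adjusted p = 0.012).

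Energy metabolism was lower in 10 of 14 genes and higher in none, with a median of -0.71, and lower in 8 among astrocyte-dominated cells. The metallothionein Mt2 was at 311, 116, 274 and 238 CPM against 611, 479, 703 and 425 (-1.33, SE 0.14, adjusted p = 7.9e-06), and the peroxiredoxin Prdx6 at 459, 182, 422 and 312 CPM against 805, 634, 688 and 552 (-1.06, SE 0.13, adjusted p = 4.9e-05). Both passed in all 12 alternatives. Of 16 lipid genes 6 were lower and 2 higher. Fabp5, the second brain fatty acid binding protein of the list, was lower (-0.93, SE 0.10, adjusted p = 5.8e-06), as was Clu, a lipoprotein of astrocytes (-0.83, SE 0.12, adjusted p = 0.00028), while the sterol synthesis gene Msmo1 was slightly higher (0.31, SE 0.09, adjusted p = 0.033).

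Glutamate and amino acid genes split, with 3 of 11 higher and 5 lower, and 3 and 2 in astrocyte-dominated cells. The higher genes included Slc6a11 (GAT-3), a transporter of GABA, and Slc7a11. Slc6a11 was at 517, 346, 677 and 395 CPM against 335, 228, 387 and 326 (0.54, SE 0.09, adjusted p = 0.00078), higher in 4 of 4 libraries and in all 12 alternatives. Slc7a11 was at 289, 134, 343 and 203 CPM against 187, 118, 216 and 151 (0.45, SE 0.09, adjusted p = 0.0038). Mitochondrial glutamate genes went the other way, with Glud1 at 522, 353, 501 and 445 CPM against 815, 699, 843 and 627 (-0.75, SE 0.09, adjusted p = 3.9e-05) and the carrier Slc25a18 lower (-0.89, SE 0.14, adjusted p = 0.00035). Glul was lower in all cells of both classes (-0.47, SE 0.11, adjusted p = 0.0085), and did not pass among astrocyte-dominated cells (adjusted p = 0.15, range over alternatives 2.8e-05 to 0.15). Kcnj10 of the potassium list behaved in the same manner, with adjusted p = 0.37 in those cells (range 0.016 to 0.76). Kcnj10 is among the astrocyte markers by which those cells were chosen. Gjb6 (connexin 30) was higher in members, at 41.3, 6.34, 17 and 14.6 CPM against 13.7, 4.89, 9.23 and 11.7 (0.84, SE 0.23, adjusted p = 0.021). The difference was largest in control 1. Of 10 genes of the potassium list tested, 1 was higher and 4 lower, and by DESeq2 0 were higher and 3 lower.

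Extracellular matrix and synapse genes were lower in 5 of 19 and higher in 1. Ncan, the proteoglycan neurocan, was at 2118, 1145, 1898 and 1245 CPM against 4120.1, 3558, 3838 and 2539 (-1.19, SE 0.11, adjusted p = 1.1e-06), and Sparcl1 at 1806, 774, 1018 and 914 against 3366, 2103, 1925 and 1639.7 (-1.06, SE 0.10, adjusted p = 2.1e-06). Ptprz1, a receptor phosphatase that binds the Ptn growth factor, was higher in members, at 4253, 2526, 4651 and 3387 CPM against 2438, 1776, 2593 and 2483 (0.62, SE 0.09, adjusted p = 0.00022), while Ptn itself was lower (-0.69, SE 0.12, adjusted p = 0.0011). Of 13 neurotransmitter receptor genes 4 were higher and none lower, Grm5 (0.56), Gabbr2 (0.91), Gria2 (0.41) and Adrb1 (0.70), against 4 higher and 1 lower in astrocyte-dominated cells. Gabbr2, a GABA-B receptor subunit, was at 94.3, 115, 114 and 108 CPM against 32.3, 65.3, 55.9 and 74.7 (0.91, SE 0.13, adjusted p = 0.00011). Neurons also express these receptors, and 7 of 7 pan-neuronal markers were higher in members (median 0.61), 5 of 7 when both classes were limited to astrocyte-dominated cells. The limit itself uses these markers, so the second count is in part fixed by it. The fold of Gabbr2 was larger in astrocyte-dominated cells (1.22).

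Genes of immature and of maturing glia did not move as blocks. Of 12 immature glia genes 2 were higher and 6 lower. Tnc, a matrix protein of young glia, was at 208, 102, 170.2 and 118 CPM against 368, 242, 418 and 203 (-1.07, SE 0.10, adjusted p = 2.1e-06). Igfbp2 was at 616, 222, 375 and 371 CPM against 392, 149, 203 and 250.1 (0.63, SE 0.09, adjusted p = 0.00013), and Sox11, an immature neuronal factor, was higher as well (0.42, SE 0.10, adjusted p = 0.013). Of 13 maturing astrocyte genes 2 were higher and 5 lower. Aldh1a1, a retinaldehyde dehydrogenase, was at 4.24, 1.81, 0.679 and 3.07 CPM against 39.4, 15, 9.75 and 15.9 (-3.05, SE 0.29, adjusted p = 1.9e-06), whereas Slco1c1, a thyroid hormone transporter, was at 151, 109, 101 and 88.8 against 98.3, 49.6, 60 and 51 (0.78, SE 0.11, adjusted p = 0.00015). Of 7 oligodendrocyte precursor markers tested 1 was higher in members and 1 lower. Of the 3 oligodendrocyte markers that passed the filter in members alone 1 was lower and 0 higher. The higher precursor marker was Olig2, at 359.9, 91.8, 193 and 124 CPM against 171, 62.2, 124 and 87.9 (0.67, SE 0.10, adjusted p = 0.00025).

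**Figure D3:**
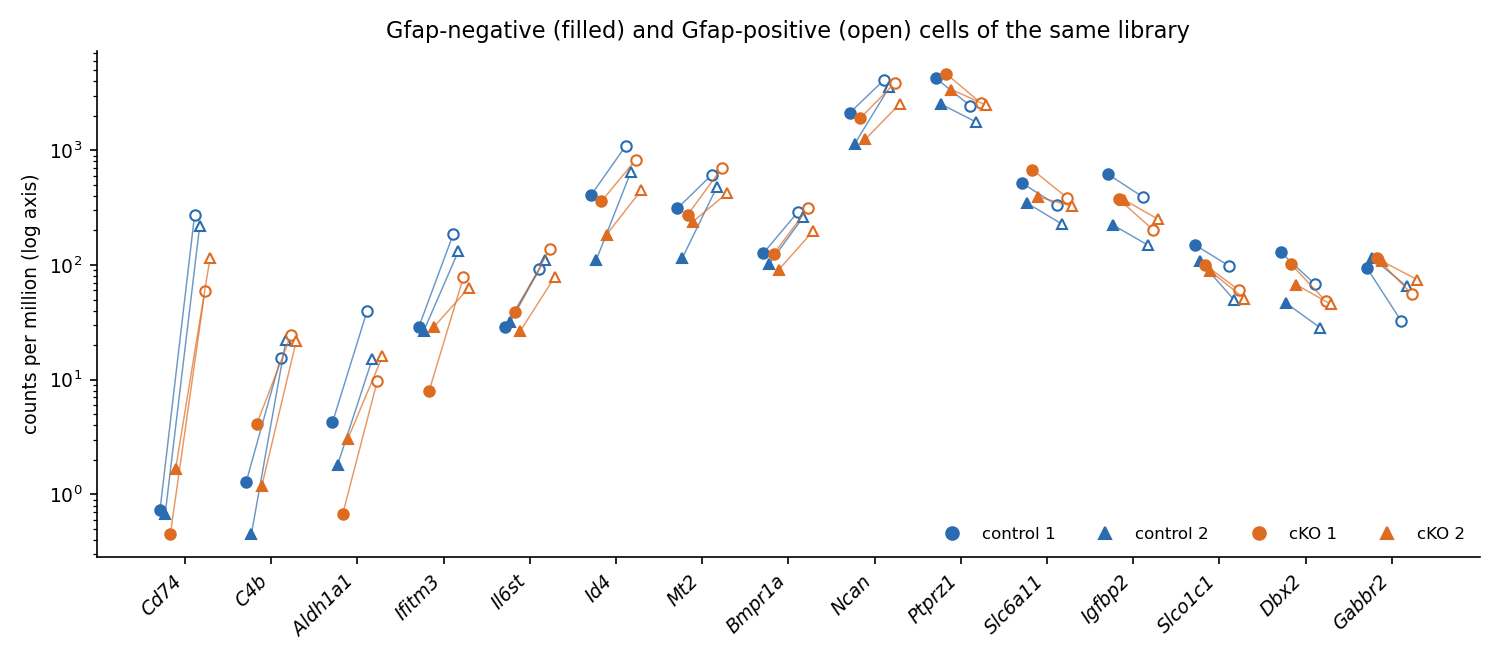
Level in CPM (log axis) of 15 genes in members (filled) and Gfap-positive cells (open), with lines that join both classes of a library. Blue marks control and orange cKO, circles replicate 1 and triangles replicate 2. The 9 genes on the left, from Cd74 to Ncan, are lower in members in 4 of 4 libraries, and the 6 on the right, from Ptprz1 to Gabbr2, are higher in 4 of 4.

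The higher genes with the largest changes were Cldn5, Cd34, Higd1b, Prr5, Fam212b, Klf2, Rax, Akap12, Nrgn and Lmo1. Cldn5, the tight junction protein of endothelial cells, was at 68.4, 214, 1.36 and 98.7 CPM in members against 43.4, 48.9, 0 and 34.2 (1.47, SE 0.21, adjusted p = 0.00013). Its direction turned to -0.87 with at least 4 markers and to -0.84 in cells thinned before the rule. Among members thinned after the rule it was found in 0.347, 5.99, 0.826 and 4.06%, and in 0.538, 3.54, 0.619 and 1.98% of thinned neuronal cells. Cd34 and Higd1b, also vascular genes, turned to -0.37 and -1.10 with at least 4 markers. Prr5, Fam212b, Akap12 and Nrgn held their direction and passed in all 12 alternatives. Akap12, a kinase scaffold, was at 59.5, 133, 79.2 and 138 CPM against 22.6, 59.4, 24.6 and 93.8 (1.09, SE 0.14, adjusted p = 5.1e-05). Nrgn, a postsynaptic calmodulin-binding protein of excitatory neurons, was at 312, 694, 480.2 and 533 CPM against 62.9, 395, 230.3 and 412 (1.04, SE 0.18, adjusted p = 0.001).

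The second comparison, the one stated in the study's design, was cKO against control within members. No gene of 12157 passed (0% called), by edgeR or by DESeq2, with 106 genes at an unadjusted p under 0.05 by edgeR and 71 by DESeq2. With the preparation day as a block 79 genes passed (0.65%), 27 higher (0.222%) and 52 lower (0.428%) in cKO. Among astrocyte-dominated members 18 passed with the block (0.156%), 4 higher (0.0347%) and 14 lower (0.121%). The block leaves 1 residual degree of freedom, so its p-values, here and below, lean on a spread estimated across genes. Leaving out a library gave 16 without control 1, 151 without control 2, 5 without cKO 1 and 17 without cKO 2, where the lone library of a genotype is assumed to vary like the others. Fold changes are log2, cKO over control, with a median of -0.02 over all genes.

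Foxp2, the targeted gene, was at 21.7, 49.6, 17.9 and 15.6 CPM in members (-1.05, SE 0.44, unadjusted p = 0.047). Control 2 stood above the rest, and control 1 lay close to both cKO libraries. Its fold was -0.23 among astrocyte-dominated members and its adjusted p with the day block 0.26 (range over alternatives 0.015 to 1). Counts at the 3' end need not report a deletion elsewhere in the gene. Emx1, whose locus drives the Cre, was at 28.9, 25.4, 16.8 and 11.8 CPM (-0.88, SE 0.29, unadjusted p = 0.02), lower in both cKO libraries, with an adjusted p of 0.44 under the block (0.14 to 1 over alternatives). Drd, the table's symbol taken here for the D1 receptor gene, was at 40.2, 70.9, 20.1 and 13.2 CPM (-1.70, SE 0.38, unadjusted p = 0.0026), and both cKO libraries were below both controls. It passed with the block (adjusted p = 3.1e-05) and did not among astrocyte-dominated members with the block (adjusted p = 0.16, range over alternatives 3.1e-05 to 1).

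Sfxn1, a mitochondrial serine carrier, was at 2022, 1389, 794 and 526 CPM (-1.32, SE 0.39, unadjusted p = 0.011). The cKO library was below the control library on both days, and the gene passed with the block in all members (adjusted p = 7e-06) and in astrocyte-dominated members (adjusted p = 0.021, range over alternatives 7e-06 to 1). Gfap-positive cells held it at 2213, 1848, 927 and 603 CPM and GTE cells of the same rule at 233, 232, 288 and 269 CPM. The GTE table was normalized apart, but its cells showed no split by genotype for Sfxn1 of that size (log2 0.08).

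Among all genes the smallest p was that of Igfbpl1, a secreted protein of newborn neurons, at 5.9, 7.25, 41 and 21.2 CPM (2.27, SE 0.38, unadjusted p = 0.00053). Both cKO libraries were above both controls. It passed with the block (adjusted p = 1.1e-07, range over alternatives 1.1e-07 to 1). Mbp, myelin basic protein, was at 15.3, 42.4, 170.5 and 63 CPM (2.02, SE 0.58, unadjusted p = 0.01), also above both controls in both cKO libraries. It passed with the block in all members (adjusted p = 2.1e-08) and in astrocyte-dominated members (adjusted p = 0.039, range over alternatives 2.1e-08 to 1). All 3 tested oligodendrocyte genes were higher in both cKO libraries, against 5.96% of all genes, and the 8 oligodendrocyte markers summed to 131, 151, 461 and 250.4 CPM in members and 205, 291, 748 and 207 CPM in Gfap-positive cells.

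**Figure D4:**
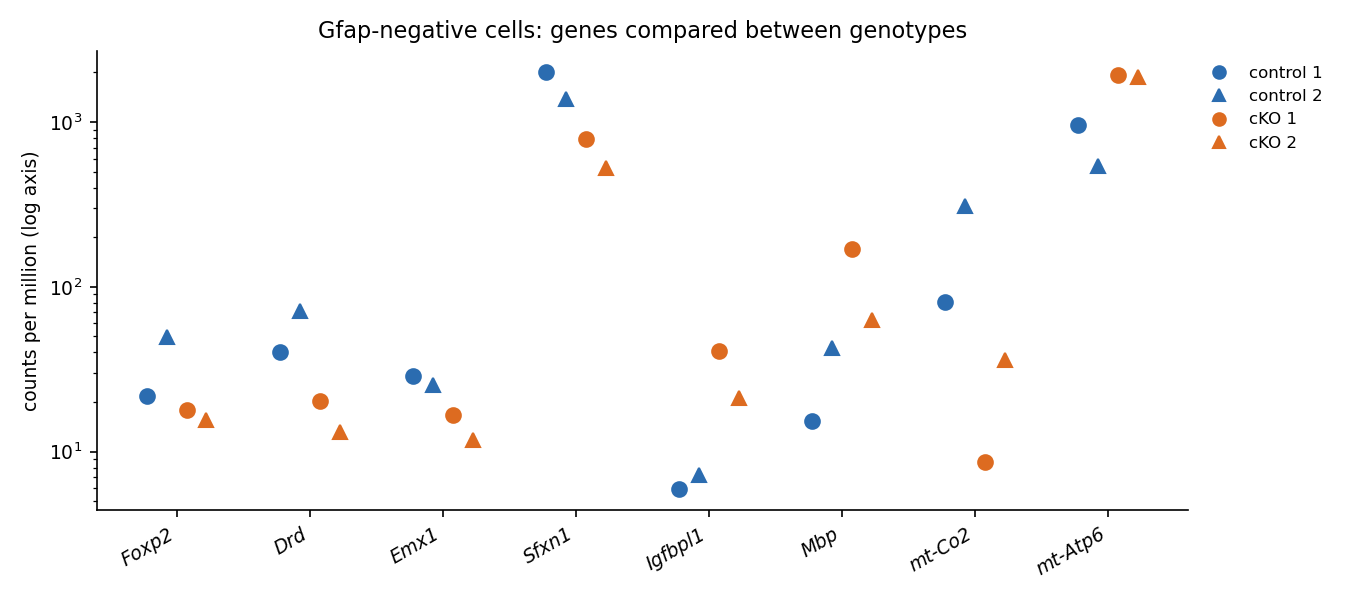
Level in CPM (log axis) of 8 genes in the members of each D1Tom library, blue for control and orange for cKO, circles for replicate 1 and triangles for replicate 2. Igfbpl1, Mbp and mt-Atp6 are higher and Foxp2, Drd, Emx1, Sfxn1 and mt-Co2 lower in both cKO libraries than in both control libraries. No gene passed the adjusted p of 0.05 without a block.

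No gene of the astrocyte function lists passed between genotypes without the block. The lists of glutamate handling, synapse factors and the 12 astrocyte markers outside the rule had no gene without overlap of the libraries in either direction, and medians of 0.18, -0.02 and 0.23. The lipid list had 2 of 16 genes higher without overlap, the energy list 1 of 13 higher and 1 lower, and the ion handling list 1 of 10 higher and 1 lower, against 5.96% and 12.1% of all genes. Itm2a, a membrane protein gene of the grey matter list and of the endothelial list, was at 33.2, 76.6, 11.3 and 40.4 CPM (-0.98, SE 0.67, unadjusted p = 0.18). It passed with the block (adjusted p = 0.02) and in astrocyte-dominated members with the block (adjusted p = 0.0498, range over alternatives 0.02 to 1), and the libraries of both genotypes overlapped. Of the transcription factors 4 of 26 were higher without overlap, against 5.96% of all genes. Of the inhibitory neuron markers 6 of 8 were higher without overlap, with a median of 0.89. Among them Dlx2, a transcription factor of interneuron precursors, was at 4.79, 7.25, 15.8 and 15.3 CPM (1.43, SE 0.40, unadjusted p = 0.0086). With the block Dlx2 and Dlx5 passed (adjusted p = 0.026 and 0.0099), and no gene of the list did so among astrocyte-dominated members (ranges over alternatives 0.026 to 1 and 0.0099 to 1). Those members were chosen in part by low counts of these same markers, so that loss is no independent check. The list summed to 86.6, 103, 144 and 185 CPM in members and 319, 185, 469.6 and 321 in the other cells. Of 6 microglial markers tested 4 were higher without overlap, with a median of 1.43. C1qb, a complement subunit of microglia, was at 1.29, 11.3, 19.9 and 19.1 CPM (1.69, SE 0.79, unadjusted p = 0.069), with control 1 the lowest. With the block C1qb and C1qc passed, and none of the 6 did so among astrocyte-dominated members (adjusted p = 7.3e-05 and 0.91 for C1qb, range over alternatives 8e-06 to 1). Mitochondrially encoded transcripts differed in both directions. The cytochrome oxidase gene mt-Co2 was at 81.3, 308, 8.6 and 36.1 CPM (-3.02, SE 0.86, unadjusted p = 0.0094) and the ATP synthase gene mt-Atp6 at 963, 542, 1926 and 1885 CPM (1.42, SE 0.42, unadjusted p = 0.011), both without overlap. Both passed with the block (adjusted p = 8.1e-21 and 1.5e-07) and among astrocyte-dominated members with the block (adjusted p = 7.9e-05 and 0.048, ranges over alternatives 8.1e-21 to 1 and 1.5e-07 to 1). The third gene of the list that passed with the block, mt-Co1, did not do so in astrocyte-dominated members. Immediate early genes had a median of -1.99 over 11 genes tested, with 8 lower under the block and none among astrocyte-dominated members. The list still summed to 4781, 533, 817 and 499 CPM in those members, so the lost calls do not mean that its levels fell there. Fosb, an AP-1 gene, was at 198, 1.36, 7.02 and 3.78 CPM, and its fold of -4.12 turned to 1.97 without control 1.

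Whether the genotype difference itself differed between members and Gfap-positive cells was tested as an interaction. It passed in 9 of 12242 genes (0.0735%), 5 higher (0.0408%) and 4 lower (0.0327%). Libraries of both genotypes did not overlap in the difference between classes for 14.8% of genes as higher and 20.8% as lower. DESeq2 gave 2 calls, astrocyte-dominated cells 1 (0.00877%), which was lower, and the day block 170 (1.39%), 63 higher (0.515%) and 107 lower (0.874%). Leaving out a library gave 135 without control 1, 149 without control 2, 18 without cKO 1 and 5 without cKO 2. Serpinf1 (interaction 1.65, SE 0.24, adjusted p = 0.0077) was at 675 and 224 CPM in the control and 86.7 and 131 in the cKO libraries among Gfap-positive cells, and lay between 6.57 and 25.2 CPM in members. Among astrocyte-dominated cells its adjusted p was 0.24 (range over alternatives 1e-07 to 0.51). The 4 globin genes that passed were high in members of control 2 alone, such as Hba-a1 at 1.66, 1402, 7.92 and 6.37 CPM. By DESeq2 0 of the 4 passed, and Hbb-bt did not pass the filter on low counts in members alone.

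The preparation day was tested next, with genotype in the fit, to set its size beside that of genotype. Of 12157 genes 779 passed (6.41%), 501 higher (4.12%) and 278 lower (2.29%) on day 2, with 687 among astrocyte-dominated members and 91 by DESeq2. The fit leaves 1 residual degree of freedom, so no library can be left out of it. Its p-values lean on a spread estimated across genes, and a call need not mean that both genotypes moved. Immediate early genes were lower in 10 of 11, with a median of -1.71, in 4 among astrocyte-dominated members and in none by DESeq2, and the libraries of day 1 did not share a level. Fos, an AP-1 transcription factor induced by activity and by dissociation, was at 1429, 58.2, 157 and 64.9 CPM (log2 -2.80, SE 0.32, adjusted p = 8e-16, and adjusted p = 0.54 by DESeq2). Ier2, another immediate early gene, was at 315, 24.7, 18.8 and 22 CPM (log2 -1.71, SE 0.33, adjusted p = 3.4e-05), and did not pass among astrocyte-dominated members (adjusted p = 0.17) or by DESeq2 (adjusted p = 0.91). Control 1 alone was high in both, and the cKO libraries of both days lay nearer to control 2.

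Endothelial and mural genes were higher on day 2 in 7 of 8, with a median of 2.75, in 7 among astrocyte-dominated members and in 5 by DESeq2, and here both libraries of the day moved. Flt1, the VEGF receptor 1 gene, was at 7.92, 84.1, 0.226 and 35.9 CPM (log2 4.25, SE 0.36, adjusted p = 2.1e-28). Igfbp7, a secreted protein of vessels, was at 35.2, 239, 3.17 and 105 CPM (log2 3.75, SE 0.31, adjusted p = 6.6e-29). Gm6133, a predicted gene, ran the other way at 156, 15.9, 205 and 9.68 CPM (log2 -3.67, SE 0.31, adjusted p = 1.8e-28), with no overlap of the days. The mitochondrial transcripts rose in 7 of 12, in 8 among astrocyte-dominated members and in 1 by DESeq2, with mt-Nd1, a complex I subunit, at 13299, 21937, 18613 and 25104 CPM (log2 0.73, SE 0.13, adjusted p = 1.7e-06, and adjusted p = 0.25 by DESeq2).

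Of the 12 astrocyte markers outside the rule 2 passed as lower on day 2, none among astrocyte-dominated members and none by DESeq2, and 11 were lower without overlap, against 39.5% of all genes. The pan-neuronal markers had 2 of 7 that passed as higher, 6 among astrocyte-dominated members and none by DESeq2, and 7 of 7 higher without overlap, against 16.2% of all genes. Both lists helped to choose the astrocyte-dominated members, so their counts within that set are in part fixed by the choice. Id2 was at 2385, 657, 1177 and 755 CPM (log2 -1.09, SE 0.23, adjusted p = 0.00026, and adjusted p = 0.12 by DESeq2), and Fdps, an enzyme of isoprenoid synthesis, at 101, 31, 83.8 and 20.1 CPM (log2 -1.72, SE 0.28, adjusted p = 2e-07). Stmn2, a tubulin-binding protein of growing axons, was at 841, 1663, 982 and 1266 CPM (log2 0.83, SE 0.23, adjusted p = 0.0087). Its fold was 1.30 among astrocyte-dominated members (adjusted p = 0.011), and by DESeq2 it did not pass (adjusted p = 0.18).

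**Figure D5:**
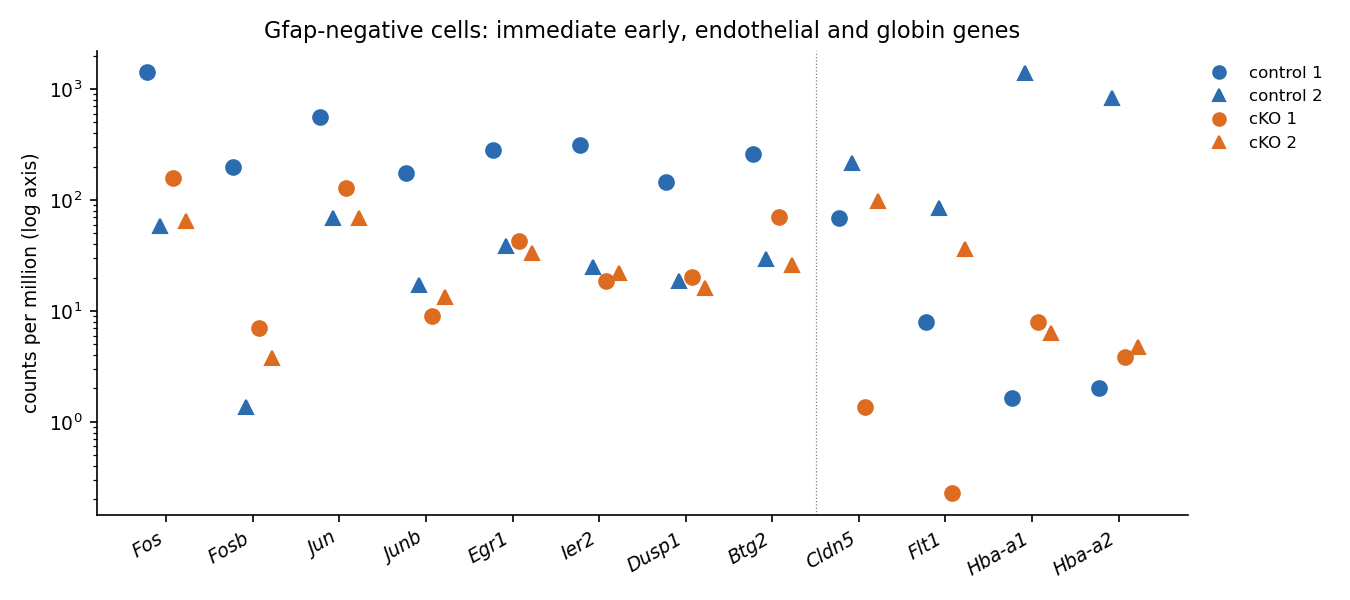
Level in CPM (log axis) in the members of each D1Tom library for 8 immediate early genes (left of the dotted line) and 4 vascular and globin genes (right), blue for control and orange for cKO, circles for day 1 and triangles for day 2. Control 1 is the highest library for each immediate early gene, and the globin genes are high in control 2 alone.

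In the GTE sort, whose table lacks Fgf15, the same rule found 116, 191, 497 and 118 cells (2.94, 6.22, 34.5 and 4.04% of each library), so most came from cKO 1. No gene of 7468 passed between genotypes (0%) by edgeR or DESeq2, with 251 and 144 at an unadjusted p under 0.05, and 132 passed without control 2. The smallest p values were those of Csrnp3 (-2.22, SE 0.55, unadjusted p = 0.00094), Kcnip2 (-2.89, SE 0.77, unadjusted p = 0.0018) and Ddn (-2.38, SE 0.64, unadjusted p = 0.002), genes of neurons that were lower in both cKO libraries than in both controls, as 9.49% of all genes were. Mbp was at 63.6, 259.9, 207 and 117 CPM in these cells, with overlap of the genotypes. Cd74 was at 0 in all 4 libraries, and Drd was at 0 in all but cKO 1 (1.95 CPM).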

How the data were processed

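Single cells of 8 libraries, 4 of the D1Tom and 4 of the GTE sort with 2 control and 2 cKO each, were analysed from the deposited tables of counts per gene and cell. Per the submitters' processing notes the tools were bcl2fastq 2.17.1.14, Cell Ranger 2.1.1, FastQC 0.11.5, UMI-tools 0.5.4, STAR 2.5.2b, featureCounts (Subread 1.6.2) and SAMtools 1.6, with the builds mm10 and GRCm38.p6. The deposited counts were whole numbers, and the deposited totals per cell equalled the column sums in the D1Tom table (17836 genes, 11494 cells). D1Tom library totals lay between 27323298 and 36379194 counts.

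The members and gene lists were chosen with earlier results of these data known. Counts were summed per library and class (Python 3.11.15, numpy 2.4.6, scipy 1.17.1) and tested with edgeR 4.0.16 in R 4.3.3 (TMM, filterByExpr, quasi-likelihood, adjusted p under 0.05), with DESeq2 1.42.0 as an alternative. The code was tested on simulated data for the genotype fit without a block and the fit between classes, and not for the other designs. The 11 genes of the rule were left out of counts of calls. Named genes were those of the lists, the genes of the rule and, per test, the 10 largest changes in each direction among genes past the threshold with at least 20 CPM in the higher group and no overlap, or the 3 smallest p where none passed. Levels named the 15 genes highest in CPM and the 15 highest in ratio to other cells, and variation the 15 highest in variance over mean. Any gene singled out outside this rule was picked with its values in view.

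The labels give D1Tom preparation days, so D1Tom replicate numbers pair the libraries. As a check, deviations from the group mean of libraries with the same number correlated at 0.461 over 12163 genes. For GTE the days are not clear from the labels and the correlation was -0.013 over 7474 genes. Doublets were scored with Scrublet (scanpy 1.11.5), whose automatic threshold marked 12, 6, 4 and 0 cells. That is too few to have worked, so an alternative left out the highest scores instead, at 0.8% per 1000 cells. Other alternatives were no filter on low counts, at least 4 markers, at least 5000 counts per cell, the replicate block, and each library left out. A further alternative thinned counts to 3000 per cell and then applied the rule anew. Where shares of thinned members are given, the cells kept their class from full counts. Limits to astrocyte-dominated cells and cells without shared barcodes were added after seeing the data. The symbol Drd was taken for Drd1, which the table does not list. Of the 7 MHC class II genes 4 matched the RefSeq promoter table. A few genes that passed these steps are not reported here.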

Additional observations from a re-analysis of the deposited data

Results flagged for a closer look

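The genotype difference differed between members and Gfap-positive cells by edgeR's test of the interaction in the 8 genes given here, each as the log2 difference in members minus that in Gfap-positive cells over 4 libraries. It was 1.65 for Serpinf1 (adjusted p = 0.0077), 1.46 for Nrp2, a semaphorin receptor (adjusted p = 0.047), 1.27 for the neuropeptide gene Npy (adjusted p = 0.044) and 0.957 for the ribonuclease gene Rnaset2a (adjusted p = 0.044). For the globin genes it was -5.12 for Hba-a1 (adjusted p = 1.3e-05), -4.93 for Hbb-bs (adjusted p = 0.0059), -4.72 for Hba-a2 (adjusted p = 0.01) and -5.21 for Hbb-bt (adjusted p = 0.044). Hbb-bt did not pass the filter on low counts in members alone, so its value is a description only. By DESeq2 0 of the globin genes passed. Members of control 2 held Hbb-bs at 1891 CPM against at most 9.21 in the other libraries. Among astrocyte-dominated cells only Hba-a1 passed.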

How the results depend on the processing

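With the replicate block of preparation day, genotype calls rose from 0 to 79 and interaction calls from 9 to 170, and with the block among astrocyte-dominated members the genotype gave 18. In GTE, where the numbers are not known to pair libraries, the block gave 0 calls. Leaving out each library in turn gave 5 to 151 genotype calls (151 without control 2), 865 to 1385 calls between classes (865 without control 2), 5 to 149 for the interaction (149 without control 2, 135 without control 1, 18 without cKO 1) and 0 to 132 in GTE (132 without control 2). DESeq2 gave 913 calls between classes, 2 for the interaction and 91 for the day. Between classes at least 4 markers gave 1083, and thinning to 3000 counts before the rule gave 670 of 9091 genes tested. The interaction gave 62 calls with no filter, 3 at 5000 or more counts per cell, 5 without the highest doublet scores and 1 among astrocyte-dominated cells, and GTE gave 1 with no filter. The cause of these moves was not tested. The difference in the share of members was 1.74 points and 9.63 without cells with markers of other types, where control 2 kept 3 members, so the tests across genes were not run on that set.

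Signs turned for Cldn5 (-0.87 with at least 4 markers, -0.84 thinned), Cd34 (-0.37) and Higd1b (-1.10) between classes with at least 4 markers, Npy (-1.01) and Hba-a1 (5.18) in the thinned interaction, and Fosb in the genotype test on leaving out libraries (-5.11 to 1.97, positive without control 1). Of the other values for named genes, 933 kept their direction and side of the threshold between classes and 65 no longer passed, 151 and 0 for genotype with 30 that passed only in the alternative, 49 and 27 for the interaction, and 55 and 23 for the day. With 2 libraries a group, and members between 334 and 596 cells a library, small differences were not detectable.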

Other observations

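Transcription factor genes of the study's own interest also differed between members and Gfap-positive cells. Foxp1, a paralog of Foxp2, was at 169, 362, 201 and 186 CPM in members against 87.7, 202, 141 and 139 CPM (log2 0.65, SE 0.10, adjusted p = 0.00035, edgeR, higher in 4 of 4 libraries). Emx1 was at 28.9, 25.4, 16.8 and 11.8 CPM against 13.7, 13.6, 6.67 and 8.56 CPM (log2 0.90, SE 0.19, adjusted p = 0.0048). Of the immediate early list only Junb (-1.26, SE 0.19, adjusted p = 0.00031) and Socs3 (-1.71, SE 0.24, adjusted p = 0.00012), a feedback inhibitor of cytokine signalling, passed between classes, both lower in members. Matn4, a matrix gene also known from oligodendrocyte precursors, was at 4.61, 5.44, 6.34 and 6.37 CPM against 59.3, 19.2, 28.7 and 20.6 CPM (log2 -2.45, SE 0.28, adjusted p = 1.8e-05).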
